A study of Homo sapiens with 20 samples.

Results

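The strongly converted clusters are stretches of transcript with a high percentage of T positions read as C in a set of IGF2BP3 PAR-CLIP libraries. A cluster is an interval of overlapping reads that carry T-to-C changes. A cluster entered the group when it had 20 or more reads and when 20% or more of the T positions read in it were read as C, both taken from the deposited cluster lists. The mitochondrial chromosome was left out. The rule was met by 318 of the 72211 clusters with 20 or more reads, which is 0.440% of those clusters and 0.0775% of all 410579 clusters. Clusters that overlapped on the same strand were merged across libraries, and the 318 clusters lay in 166 of 75158 merged regions. Both the read number and the conversion percentage chose the clusters, so neither is independent of the choice in a library that chose a cluster. For single clusters, conversion is tested below only in other libraries. Between conditions it is tested over all merged regions, some of which were also chosen in a tested library.

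The study used HCT116, a human colorectal carcinoma cell line, here a derivative carrying a Tet-OsTIR1 cassette in every group. All cells received 100 µM 4-thiouridine for 15 h and were crosslinked at 365 nm. The 5 conditions were PBS for 2 h, sodium arsenite at 250 µM for 2 h, DMSO for 4 h, and tunicamycin at 5 µg/mL for 1 h or for 4 h, each with 3 anti-IGF2BP3 libraries and 1 control IgG library. One protocol label calls the arsenite agent arsenate. Per the library names, replicates 1 and 2 of the DMSO and tunicamycin groups came from one library set, replicate 3 of those groups from another, and the PBS and arsenite libraries from a separate one. The labels do not say whether replicates were separate cultures, so each p-value measures only the spread between libraries.

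IGF2BP3 is an oncofetal RNA-binding protein with RRM and KH domains, known for binding untranslated and coding parts of many mRNAs and for affecting their stability and translation. In PAR-CLIP, 4-thiouridine is built into RNA in place of uridine, and a protein crosslinked to it leaves a T-to-C change in the cDNA. Only T positions can therefore show a conversion. Tunicamycin blocks N-glycosylation and triggers the unfolded protein response, and arsenite causes oxidative stress.

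The clusters of this kind were poor in T. The sequences below, 30 bases around the modal position of the cluster with most reads, are shown because their regions are among the 15 that recurred in most libraries. Capitals mark T, the one base that can be counted as converted. Positions are GRCh38. SUPT5H encodes a subunit of the DSIF transcription elongation factor, EPHA2 an ephrin receptor tyrosine kinase, FGFRL1 a receptor-like protein of the fibroblast growth factor receptor family, and MED13L a subunit of the Mediator kinase module.
SUPT5H, chr19:39474313-39474342, plus strand: TaccaccaggTggcgccaagcccagcaggc
EPHA2, chr1:16124985-16125014, minus strand: cccTgcgagacgcacacagcTgagcacTTa
FGFRL1, chr4:1025644-1025673, plus strand: cacacgcacagagacaTgccagaacaTaca
MED13L, chr12:115991888-115991917, minus strand: cTgaacacaccacagaTgaacacacccgTg

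A further group came from ribosomal protein genes and their processed pseudogenes. RPL28 encodes a protein of the large ribosomal subunit. The cluster at RPL28P3 was identical to that at RPL28 in 81 of 82 aligned bases, and the cluster at RPL28P5 in 32 of 33, so reads could have been placed at either copy.
RPL28, chr19:55387929-55387958, plus strand: ggccagcggaagccTgccaccTccTaTgTg
RPL28P3, chr5:124809003-124809032, minus strand: cagccagcggaagccTgccaccTccTaTgT
RPL28P5, chr19:12260436-12260465, plus strand: gaccTgcgcaTggcagccaTccgcagggTc

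The last group came from the initiator methionine tRNA, which carries the first amino acid of every protein. TRX-CAT1-1 and TRX-CAT1-5 are 2 of its genes. A cluster on chromosome 6 outside any gene on its strand matched the cluster at each of them in 40 of 42 aligned bases. The cluster at TRX-CAT1-1 ran past the annotated end of the tRNA gene into a run of T.
TRX-CAT1-1, chr1:153671303-153671332, plus strand: TcgaaaccaTccTcTgcTaTcggagTTTTT
TRX-CAT1-5, chr6:27332981-27333010, minus strand: cgaTggaTcgaaaccaTccTcTgcTaTgag
tRNA-like region, chr6:56322856-56322885, plus strand: TcgaTggaTcaaaaccaTccTcTgcTaTca

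Within the strongly converted clusters the conversion percentage ran from 20.0% to 50.5%, with a median of 22.1%, against a median of 7.79% in the other clusters with 20 or more reads. Close to the limit, 146 of the 318 were under 22%, while 82 reached 25% and 29 reached 30%. The 29 lay in 11 regions, and 12 of them were the SUPT5H region. Among clusters with 100 or more reads, the 3 just inside the limit were the tRNA-like region of chromosome 6 in PBS replicate 1 at 20.1%, TRX-CAT1-5 in the same library at 20.4% and TRX-CAT1-1 in DMSO replicate 1 at 20.5%. The 3 just outside were the chromosome 6 region in DMSO replicate 1 at 19.9%, TRX-CAT1-5 in that library at 19.8% and the chromosome 6 region in PBS replicate 3 at 19.6%. The same tRNA sequences thus stood on both sides of the limit. Read numbers ran from 20 to 293, with a median of 28 against 34 in the other clusters.

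The conversion percentage is the number of conversions over the number of T positions read, and both are given here per read. The median strongly converted cluster had 0.800 conversions per read and 3.36 T positions per read, whereas the median other cluster had 0.625 conversions and 7.99 T positions per read. Of the 318, 286 had fewer than 5 T positions per read, as had 4.98% of the other clusters. One or more conversions per read were found in 41 of the 318 and in 0.357% of the other clusters. These values follow from the rule and carry no test.

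Over all clusters with 20 or more reads, the share that was strongly converted fell steeply with T content. It was 26.7% of 673 clusters under 15% T, 3.02% from 15% to 20%, 0.357% from 20% to 25%, 0.0585% from 25% to 30% and 0.00226% of 44262 clusters at 30% T or more. Summed over all clusters of a class, the conversion percentage went from 16.4% to 6.88% over the same classes. Conversions per read, as total conversions over total reads of a class, moved little, from 0.576 in the lowest T class to between 0.598 and 0.625 in the other 4.

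**Figure D1:**
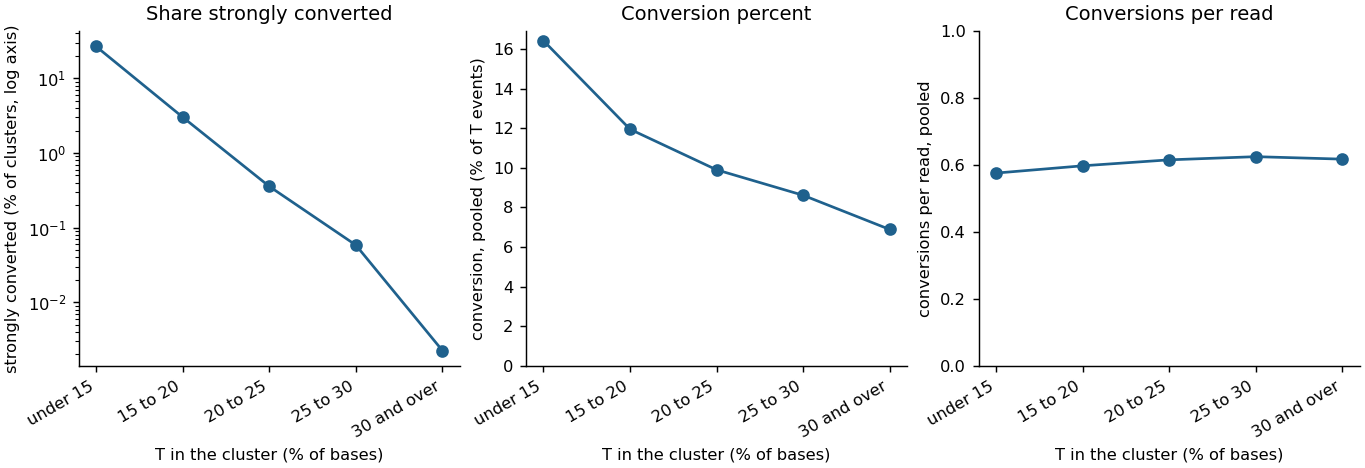
Clusters with 20 or more reads of the 15 anti-IGF2BP3 libraries, grouped by T content (horizontal axis, percent of bases): the percentage strongly converted on a log axis, the percentage of T positions read as C, and conversions per read, the last 2 summed over all clusters of a class. The first 2 fall from the lowest to the highest T class, from 26.7% to 0.00226% and from 16.4% to 6.88%, while conversions per read stay between 0.576 and 0.625.

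The base composition was compared with that of the other clusters of the same library, as means over the 15 libraries. T made up 15.5% ± 2.33 (SD, n = 15 libraries) of the bases in strongly converted clusters and 32.0% ± 0.790 in the others, lower in 15 of 15 libraries. A run of 4 T was present in 1.95% ± 4.38 of the strongly converted and 59.1% ± 4.62 of the other clusters. Because T positions are the denominator of the conversion percentage, these 2 differences are given as description. C was 9.22 percentage points higher and G 5.38 points higher in the strongly converted clusters, each in 15 of 15 libraries, and A 1.81 points higher, in 13 of 15.

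Among the bases other than T, the composition also differed. C made up 40.2% ± 2.28 of them in strongly converted clusters against 36.4% ± 1.04 in the others, higher in 13 of 15 libraries (two-sided exact sign-flip permutation test, adjusted p = 0.000712). G was 27.2% ± 1.67 against 25.8% ± 0.442, higher in 13 of 15 libraries (same permutation test, adjusted p = 0.0083), but the difference turned to -0.0994 points at a conversion limit of 30% and to -0.294 points in regions that met the rule in 1 library only. A was 32.5% ± 2.56 against 37.8% ± 0.789, lower in 14 of 15 libraries (same permutation test, adjusted p = 0.000712). The smallest p that 15 sign flips can give is 6.1e-05. The libraries share many regions, so these p-values cover the spread between libraries and not between independent transcripts.

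The strongly converted clusters were also shorter. Their mean length was 77.6 ± 16.6 bases against 123 ± 9.17 bases, shorter in 15 of 15 libraries by 45.4 bases on average (exact sign-flip permutation test, adjusted p = 0.00013). The conversion percentage is taken over the whole cluster, so length may be tied to the rule, and T content was not held equal here. Single lengths ran from 24 to 275 bases, with a median of 70 bases against 110 in the others. Where the other clusters were weighted to the read numbers of the strongly converted ones, the difference was 38.2 bases, shorter in 14 of 15 libraries. A converted position was recorded at a median of 6 sites per cluster against 13 in the others.

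Short motifs were searched in the cluster sequence on the strand of the RNA only. CAT and ACA are elements reported for IGF2BP proteins, GGAC is the core of the m6A context, and GGC is an element reported for KH domains of this family. CAT was present in 72.0% ± 11.3 of strongly converted clusters and 90.4% ± 0.715 of the others, lower in 14 of 15 libraries (exact sign-flip permutation test, adjusted p = 0.00045). ACA was present in 65.1% ± 26.5 against 84.6% ± 1.38, lower in 11 of 15 libraries (same permutation test, adjusted p = 0.0056). Each library counted equally in this mean, whatever its number of strongly converted clusters. PBS replicate 2, with 2 of them, had 0%, and replicate 1 of tunicamycin for 1 h, with 6, had 16.7%. ACA was higher in DMSO replicate 3, replicate 3 of tunicamycin for 4 h and arsenite replicates 2 and 3. Of all 318 strongly converted clusters, 251 held ACA. Counted per 100 bases, which removes the effect of length, ACA was 0.72 occurrences more frequent in the strongly converted clusters (adjusted p = 0.078), and CAT remained 0.44 occurrences less frequent (adjusted p = 0.011). GGC was present in 58.8% ± 24.3 against 56.5% ± 1.90 and GGAC in 24.6% ± 12.9 against 23.4% ± 2.10, differences that did not pass the test (adjusted p = 0.71 for both). Per 100 bases, GGC was 0.59 occurrences more frequent (adjusted p = 0.0076). GGC contains no T, and CAT contains one, so these values are tied to the T content above.

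**Figure D2:**
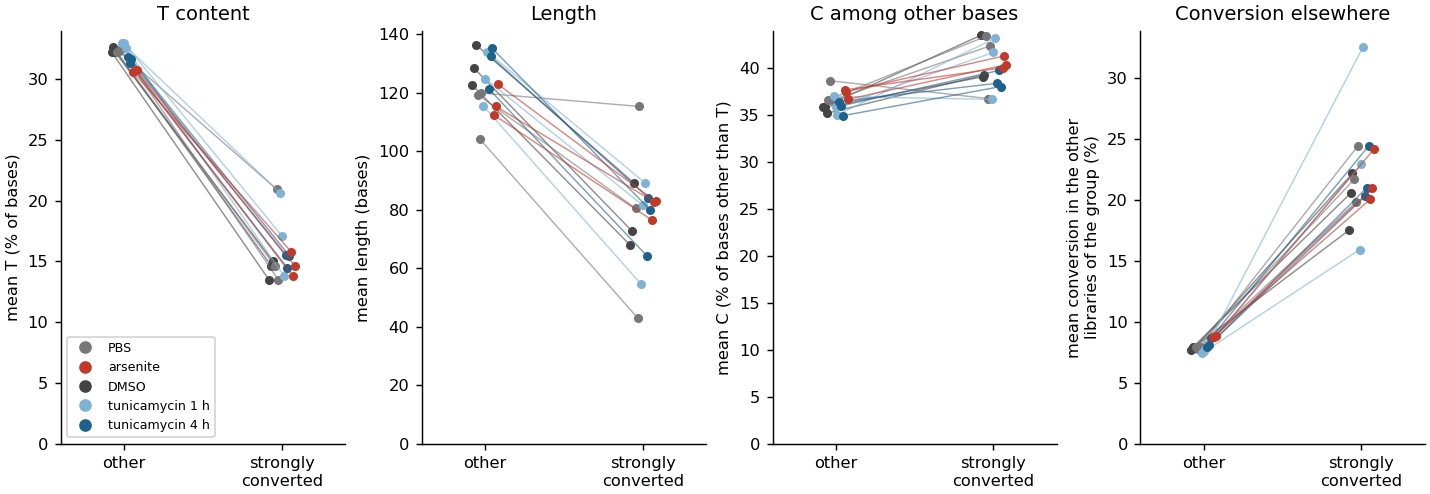
Strongly converted clusters against the other clusters with 20 or more reads, 1 pair of joined points per library, coloured by condition: mean T (percent of bases), mean length (bases), mean C among bases other than T (percent), and mean conversion of the overlapping cluster in the other libraries of the group (percent). T and length were lower and conversion elsewhere higher in 15 of 15 libraries, and C among the other bases was higher in 13 of 15.

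A strongly converted cluster overlapped a cluster with 20 or more reads in the other libraries of its condition in 60.6% ± 34.1 of cases, against 65.1% ± 28.7 for other clusters, a difference of 4.55 points that did not pass the test (exact sign-flip permutation test, adjusted p = 0.059). It passed without PBS replicate 2, DMSO replicate 1 or any one of replicates 1 and 2 of the tunicamycin groups, at -5.70 to -4.76 points (adjusted p of 0.037 to 0.047, permutation test). Where an overlapping cluster existed, its mean conversion in those libraries was 21.9% ± 3.8 against 8.06% ± 0.467, higher in 15 of 15 libraries (same permutation test, adjusted p = 0.00013). These libraries were not used to choose the cluster in question. For the 113 regions that met the rule in 1 library only, the conversion elsewhere was 6.53 points above that of other clusters, in 8 of 8 libraries with a value. These regions were chosen by not meeting the rule in the other libraries, which bounds the conversion there. That difference is therefore given as description.

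Counted over pairs, a strongly converted cluster met an eligible overlapping cluster in another library of its condition in 289 of 636 cases. That cluster also met the rule in 135 of the 289, or 46.7%, and its conversion had a median of 19.7% and a range of 5.34% to 50.5%. It reached 15% in 83.4% of these pairs, against 1.75% of the pairs of other clusters. Of the 166 regions, 113 met the rule in 1 library, 53 in 2 or more and 34 in 3 or more. In 43 regions only 1 library had a cluster with 20 or more reads, so recurrence could not be seen there. In 12 regions with 2 or more such libraries, every one of them met the rule.

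The SUPT5H region stood highest. Its conversion was 48.4% and 50.0% in PBS replicates 1 and 3, 48.1%, 42.1% and 46.3% in arsenite replicates 1 to 3, and 50.5% and 50.0% in DMSO replicates 2 and 3. It was 43.1% and 46.3% in replicates 2 and 3 of tunicamycin for 1 h, and 44.0%, 47.5% and 42.7% in replicates 1 to 3 of tunicamycin for 4 h. All 12 libraries with a cluster there met the rule. Both PBS values lay above the 3 arsenite values, and both DMSO values above the 5 tunicamycin values, while the tunicamycin groups overlapped. These differences were not tested, because PBS replicate 2, DMSO replicate 1 and replicate 1 of tunicamycin for 1 h had no cluster there. Each read held between 1.74 and 2.23 T positions and carried between 0.846 and 0.963 conversions, at 2 to 6 converted positions per library. The clusters were 41 to 98 bases long with 24 to 111 reads.

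RPL28 met the rule in 11 of the 12 libraries with 20 or more reads. Its conversion ran from 17.9% in PBS replicate 3, the one exception, to 28.7% in replicate 1 of tunicamycin for 4 h, with a median of 22.1%. RPL28P5 met the rule in all 7 libraries with 20 or more reads, between 25.0% and 29.7%. RPL28P3 met it in 5 of 7, between 18.8% and 25.6%.

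EPHA2 met the rule in 9 libraries. Its conversion was 30.3% in PBS replicate 1, 27.8%, 31.5% and 32.3% in arsenite replicates 1 to 3, and 33.8%, 31.7% and 26.7% in the 3 libraries of tunicamycin for 4 h. It was 28.6% in DMSO replicate 2 and 21.0% in replicate 3 of tunicamycin for 1 h. The exception among libraries with 20 or more reads was DMSO replicate 3 at 18.5%, and the DMSO range of 18.5% to 28.6% overlapped that of tunicamycin for 4 h. MED13L ran from 17.9% to 34.5% over 6 libraries and met the rule in 5. FOXK1, a forkhead transcription factor, met it in 5 of 7, between 16.4% and 27.4%.

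**Figure D3:**
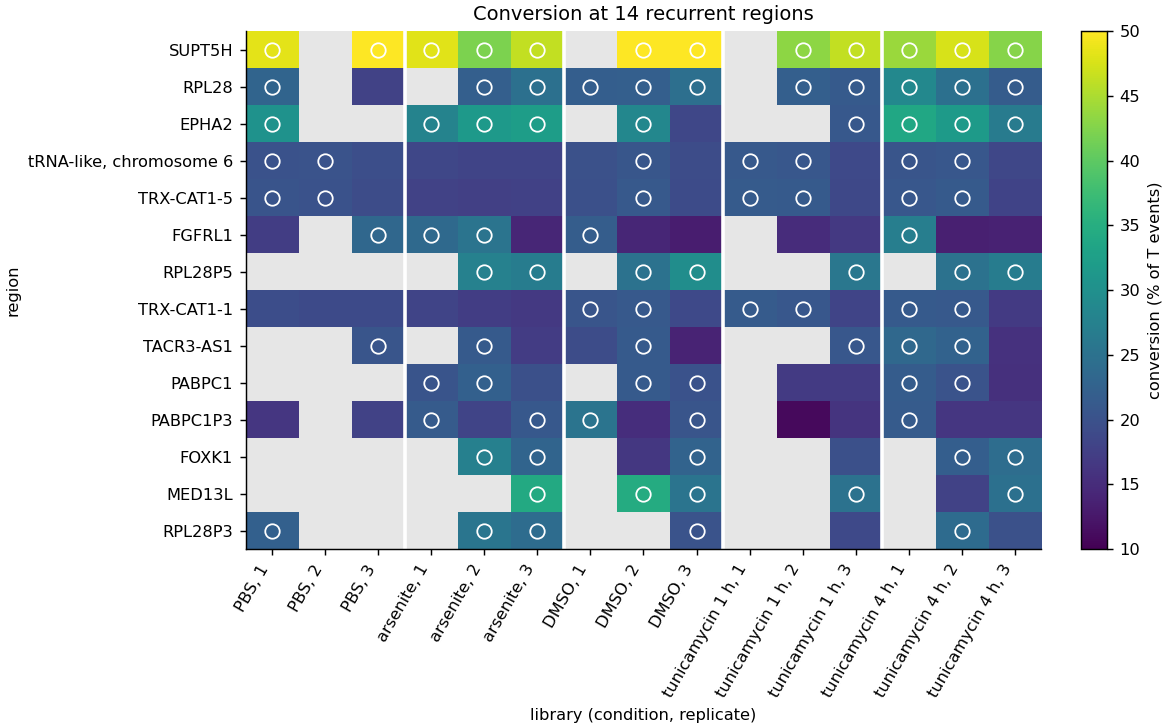
Conversion (colour, percent of T positions read as C) at 14 of the regions that met the rule in most libraries (rows), in each of the 15 anti-IGF2BP3 libraries (columns, condition and replicate). Grey marks a library with no cluster of 20 or more reads, and a circle marks a library whose most overlapping cluster met the rule. SUPT5H lies between 42.1% and 50.5% in its 12 libraries, and the other 13 rows lie lower.

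In several regions clusters that overlapped, in whole or in part, lay on both sides of the limit. The values here are for the cluster of each library that overlapped most with the strongly converted cluster of most reads. At FGFRL1 the cluster was 119 bases long with 20 reads in DMSO replicate 1, where conversion was 21.8%. It was 963 bases long with 1016 reads in DMSO replicate 3, where conversion was 13.2%. At CD44, which encodes a hyaluronan receptor and is a known IGF2BP target, clusters of 55 and 59 bases in replicate 3 of tunicamycin for 4 h and arsenite replicate 2 had 25.0% and 25.5%. Overlapping clusters of 63 to 232 bases in the other 10 libraries with 20 or more reads had 4.89% to 8.90%, and arsenite replicate 1 held a further cluster of the region at 21.1%. The clusters of 55 and 59 bases had 0.818 and 0.797 T positions per read, and those of the other 10 libraries 6.35 to 8.47. The reads therefore need not cover the same bases. At the early response gene EGR1 the cluster of DMSO replicate 1 had 20 reads and 24.2%, and those of the 3 arsenite libraries had 1586, 2332 and 4095 reads and 14.9% each. At FGFRL1 and EGR1 the longest clusters did not meet the rule, and neither did some short ones, such as the 75-base FGFRL1 cluster of PBS replicate 1 at 17.2%.

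The tRNA regions differed from the rest of the group. The initiator tRNA genes and the chromosome 6 copy gave 20 of the 318 clusters and 23.3% of the 12697 reads in them. Their conversion lay between 20.1% and 21.5%, with 6.40 to 8.23 T positions and 1.29 to 1.76 conversions per read. The T positions per read were therefore near those of other clusters, and the conversions per read were higher. A further 2 clusters at the tRNA gene TRN-GTT2-5 and 1 at TRT-AGT2-2, named after their values were seen, brought the tRNA total to 23 clusters in 5 regions.

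At TRX-CAT1-1 the conversion was 19.5%, 19.1% and 19.0% in PBS replicates 1 to 3 and 18.2%, 17.2% and 16.6% in arsenite. In DMSO it was 20.5%, 21.1% and 18.8%, in tunicamycin for 1 h 21.5%, 20.8% and 18.1%, and in tunicamycin for 4 h 21.4%, 21.2% and 16.8%. PBS and arsenite did not overlap, and replicate 3, which came from its own library set, was the lowest in each of the other 3 groups. The log2 odds ratio of arsenite against PBS was -0.21 ± 0.063 (SE, edgeR quasi-likelihood test, adjusted p = 0.72), which did not pass. At TRX-CAT1-5 and the chromosome 6 region the PBS values were also above the arsenite values without overlap. They were 19.3% to 20.4% against 17.6% to 17.9% and 19.6% to 20.2% against 18.1% to 18.5%, in that order. The edgeR adjusted p was 0.996 for both. These 2 regions met the rule in PBS replicates 1 and 2 and in no arsenite library, so this contrast is not independent of the choice. TRX-CAT1-1 met the rule in no PBS or arsenite library.

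The control IgG libraries held clusters at these tRNAs too. IgG clusters had 16.05% to 19.6% conversion at TRX-CAT1-1, 16.01% to 19.4% at TRX-CAT1-5 and 15.4% to 19.4% at the chromosome 6 region, with between 14 and 85 reads. No IgG cluster met the rule: 0 of 66 with 20 or more reads did. This allows a share of up to 4.55%, a limit above the 0.440% over all anti-IGF2BP3 clusters with that many reads. The highest conversion among the 66 was 19.4%. A further 7 IgG clusters had 20% or more conversion, but with fewer than 20 reads. Over all 318 clusters, 24 in 6 regions overlapped an IgG cluster, and 20 of those 24 were the initiator tRNA and chromosome 6 regions. The mean share with an IgG overlap was 20.7% ± 29.7 against 5.54% ± 5.65 for other clusters, higher in 9 and lower in 6 of 15 libraries (exact sign-flip permutation test, adjusted p = 0.029). The call was lost without any one of PBS replicates 1 or 2, replicates 1 or 2 of tunicamycin for 1 h, or replicate 1 of tunicamycin for 4 h, with differences of 10.8 to 14.9 points and adjusted p of 0.052 to 0.056 (permutation test). Among regions that met the rule in 1 library only, that difference was -2.80 points (adjusted p = 0.023), the opposite direction.

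By gene class, 220 of the 318 clusters lay in protein-coding genes, 65 in pseudogenes, 16 in tRNA genes, 6 in a long non-coding RNA gene and 11 outside any gene. Means over libraries were 60.1% ± 22.7 protein-coding against 84.0% ± 1.07 in other clusters, lower in 14 of 15 libraries (exact sign-flip permutation test, adjusted p = 0.000712). Pseudogenes made up 16.3% ± 9.54 against 9.28% ± 0.558, higher in 11 of 15 libraries (same permutation test, adjusted p = 0.0165). Small RNA genes made up 13.02% ± 17.7 against 1.86% ± 0.578, higher in 9 of 15 (same permutation test, adjusted p = 0.0165). Each library counted equally, and PBS replicate 2, with 2 strongly converted clusters, had 50.0% small RNA and 0% protein-coding. Pooled over libraries, the shares were 69.2% against 84.2% protein-coding, 20.4% against 9.22% pseudogene and 5.03% against 1.58% small RNA. Of the 16 clusters in tRNA genes, 7 were TRX-CAT1-5 and 6 TRX-CAT1-1, the same regions in different libraries. Among regions that met the rule in 1 library only, these differences were 3.21 points for protein-coding genes (adjusted p = 0.74), 0.461 points for pseudogenes (adjusted p = 0.93) and -1.16 points for small RNA genes (adjusted p = 0.20). The libraries with such a region numbered 11. Gene classes were assigned by gene span, and exon and UTR positions were not used here.

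Families of abundant housekeeping transcripts, grouped by name after their values were seen, held several regions. Ribosomal protein genes and pseudogenes accounted for 57 strongly converted clusters among 1545 clusters with 20 or more reads, or 3.69%, against 0.440% over all. Their pseudogenes alone gave 36 of 556. EEF1A1 and the elongation factor gene EEF2, with their pseudogenes, gave 11 of 191, and EEF2 held 4 separate regions. Genes and pseudogenes of the chaperone HSP90 gave 11 of 327, with HSP90AA4P between 28.2% and 32.4% in its 4 libraries. PABPC1, which encodes the cytoplasmic poly(A)-binding protein, and its pseudogenes gave 12 of 573. A near copy elsewhere, meaning at least 30 bases at 90% identity or more, was found for 39.6% of the strongly converted and 33.7% of the other clusters, and the mean difference over libraries of 9.42 points did not pass the test (exact sign-flip permutation test, adjusted p = 0.085).

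Of 11 listed genes of known IGF2BP targets, 8 had clusters with 20 or more reads. Of their 560 such clusters 3, all in CD44, were strongly converted, which is 0.536% and near the 0.440% over all clusters. The highest single values in the others were 17.3% in ACTB, 15.1% in CCND1 and 13.1% in CTNNB1. Of 12 listed genes of the unfolded protein response, 11 had such clusters, and 0 of their 218 were strongly converted, which allows a share of up to 1.38%, a limit above the 0.440% over all clusters. The highest conversion there was 15.4% in HERPUD1, and it was 13.5% in HSPA5, the ER chaperone BiP. Of 12 listed arsenite response genes, 9 had such clusters, and 10 of 290 were strongly converted, which is 3.45% against 0.440% over all clusters, with no test. These were 6 in EGR1, 2 in JUN, 1 in the heat shock gene DNAJB1 and 1 in the metallothionein gene MT2A. The DNAJB1, JUN and MT2A clusters and 2 of those in EGR1 came from arsenite libraries. At the DNAJB1 and JUN clusters only arsenite replicate 3 reached 20 reads. At the region of those 2 EGR1 clusters only arsenite replicates 2 and 3 did. The rule could therefore not be met there in any other library, so these counts say nothing about conversion between conditions.

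The number of strongly converted clusters varied between libraries. It was 12, 2 and 9 in PBS replicates 1 to 3 and 19, 26 and 61 in arsenite. It was 7, 22 and 39 in DMSO, 6, 6 and 16 in tunicamycin for 1 h, and 15, 26 and 52 in tunicamycin for 4 h. Depth differed as well, with 353 to 13427 clusters of 20 or more reads and 130478 to 1568406 reads counted over genes per library, so a share of those clusters was compared. PBS replicate 2 was the shallowest, and its 2 clusters, the TRX-CAT1-5 and chromosome 6 regions, gave a share of 0.567% with an exact Clopper-Pearson 95% interval of 0.0687% to 2.03%, which covers counting error only.

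The share was 0.507%, 0.567% and 0.418% in PBS and 0.915%, 0.687% and 0.743% in arsenite. Every arsenite library lay above every PBS library. The mean difference was 0.284 percentage points (two-sided exact permutation test, p = 0.10, the smallest that 3 against 3 libraries allow, adjusted p = 0.20). In DMSO the share was 0.363%, 0.296% and 0.371%, in tunicamycin for 1 h 0.652%, 0.223% and 0.190%, and in tunicamycin for 4 h 0.593%, 0.481% and 0.387%. Tunicamycin for 4 h lay above DMSO without overlap, by 0.144 points (exact permutation test, p = 0.10, adjusted p = 0.20). Within the library sets this difference was 0.208 points in replicates 1 and 2 and 0.0160 points in replicate 3. Tunicamycin for 1 h overlapped DMSO, with a difference of 0.0120 points (exact permutation test, p = 1.0), which was 0.109 points in replicates 1 and 2 and -0.181 points in replicate 3. Without replicate 1 of tunicamycin for 1 h the difference was -0.137 points. The arsenite effect exceeded that of tunicamycin for 4 h by 0.141 points and for 1 h by 0.272 points, neither past the threshold (exact permutation of labels within each contrast, adjusted p = 0.43 and 0.40).

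**Figure D4:**
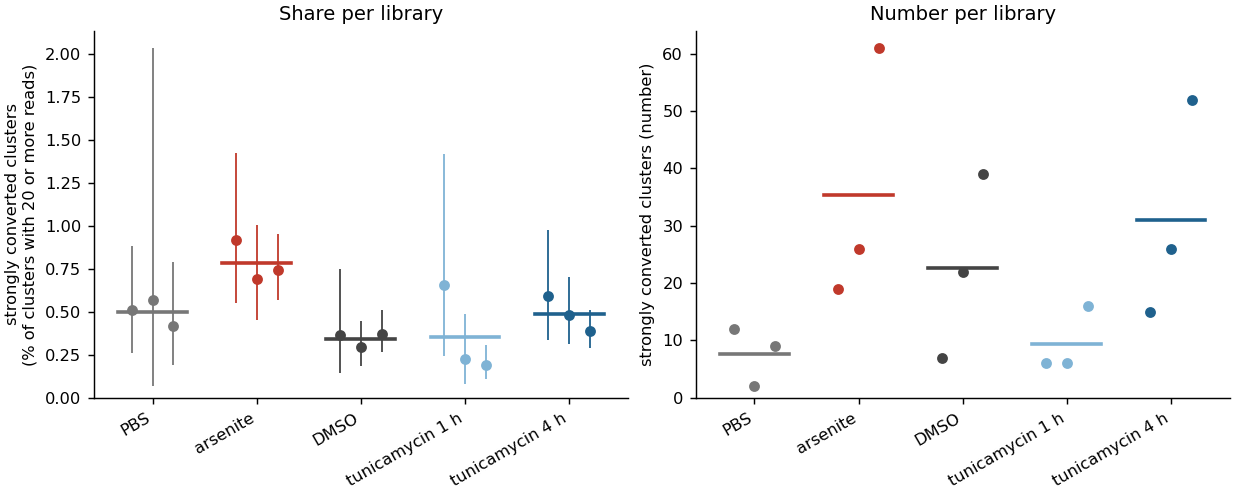
Strongly converted clusters per library by condition, as a percentage of clusters with 20 or more reads (left, with exact 95% binomial intervals) and as a number (right). Points are libraries and horizontal lines the means of 3. The arsenite shares of 0.687% to 0.915% lie above the PBS shares of 0.418% to 0.567%, and tunicamycin for 1 h spans 0.190% to 0.652%.

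The share of T-poor clusters was also compared between conditions, and no comparison passed the threshold. It was higher where the strongly converted share was higher in arsenite against PBS and in tunicamycin for 4 h against DMSO. That was not so in tunicamycin for 1 h against DMSO. Its part in the differences above was not tested. Of all clusters with 20 or more reads, whatever their conversion, 7.03%, 7.90% and 7.73% had under 20% T in the arsenite libraries, against 5.07%, 2.55% and 4.69% in PBS. The mean difference was 3.45 points, with no overlap (exact permutation test, p = 0.10, the smallest possible). In DMSO the percentage was 4.61%, 4.18% and 4.72%, in tunicamycin for 1 h 4.02%, 3.69% and 4.12%, and in tunicamycin for 4 h 4.94%, 5.46% and 5.75%. The 3 groups did not overlap, with tunicamycin for 4 h above DMSO by 0.877 points and tunicamycin for 1 h below it by 0.562 points (exact permutation test, p = 0.10 each). A weighting of each library to the same T classes was chosen after the data were seen. With it, the difference in the strongly converted share was 0.0142 points for arsenite against PBS (exact permutation test, p = 0.90). For tunicamycin for 4 h against DMSO it was 0.0749 points (exact permutation test, p = 0.70), and in both comparisons the groups then overlapped. The weighting cannot decide the part of T content, as PBS replicate 2 had only 9 clusters under 20% T among 353.

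Numbers of regions followed the counts. PBS held 18 regions, arsenite 84, DMSO 56, tunicamycin for 1 h 22 and tunicamycin for 4 h 74. Of the 84 arsenite regions, 66 met the rule in 1 of the 3 libraries, 14 in 2 and 4 in all 3, and 34.5% met it in another condition as well. Of the 18 PBS regions 77.8% did so, from far fewer clusters. The T content of the strongly converted clusters did not differ beyond the spread between libraries, at 14.7% ± 1.02 in arsenite, 16.3% ± 4.02 in PBS, 14.4% ± 0.823 in DMSO, 17.2% ± 3.41 in tunicamycin for 1 h and 15.1% ± 0.596 in tunicamycin for 4 h (SD, n = 3 each, exact permutation tests, adjusted p of 0.60 or more). Their mean length was 80.7 ± 3.66 bases in arsenite and 79.6 ± 36.2 in PBS, and between 75.1 and 76.5 bases in the other 3 conditions.

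Whether the conversion of a region changed with treatment was tested in all merged regions with 10 or more reads in every library of a fit. For arsenite against PBS, 919 regions were tested and 0.218% were called at an edgeR adjusted p under 0.05, namely the PCBP1 region, higher, and the KIAA0825 region, lower, neither of which held a strongly converted cluster. Without any one of the PBS libraries or arsenite replicate 3 there were 0 calls, and without arsenite replicate 2 there was 1. Limma called 0 there, and 48 regions had an unadjusted p under 0.05. In each of the tunicamycin comparisons 0% of 1862 regions were called, by edgeR and by limma, with 27, 28 and 34 at an unadjusted p under 0.05. Strongly converted regions chosen in the tunicamycin and DMSO libraries numbered 107, of which 18 could be tested for arsenite, and 0 of the 18 were called. Their median log2 odds ratio was 0.07 against 0.05 over all regions, with 11 higher and 7 lower. Of the 94 regions chosen in the PBS and arsenite libraries, 20 could be tested for tunicamycin, and 0 were called, with median log2 odds ratios of -0.04 at 1 h and -0.0031 at 4 h against DMSO. Those that could be tested are the well-covered ones, and no call was made for the rest. Some regions of both sets, such as CD44 among the 18 and TRX-CAT1-5 among the 20, were also chosen in the tested libraries. For CD44, which met the rule in arsenite libraries, the difference given next is therefore not independent of the choice. At CD44, which held the lowest p among the 18, conversion over the merged region was 9.52% ± 1.23 in arsenite and 5.80% ± 1.05 in PBS (SD, n = 3 each), a log2 odds ratio of 0.81 ± 0.19 (SE, edgeR adjusted p = 0.31).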

How the data were processed

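PAR-CLIP libraries of HCT116 cells were analysed from the deposited cluster lists. Reads were handled with bcl2fastq 2.20.0.422, UMI-tools 1.1.1, Trimmomatic 0.30, Bowtie 0.12.7 and featureCounts 2.0.1 on GRCh38.p13 (hg38), per the submitters' processing notes. The cluster caller is not given in the sources used here. Per the file headers, the deposited values are counts of reads, conversion events and non-conversion events per cluster, and gene counts per library.

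Clusters with 20 or more reads and 20% or more conversion were selected with pandas, and overlapping clusters merged by strand. Each was compared with the other clusters of its library by an exact sign-flip permutation test over 15 libraries, adjusted by the Benjamini-Hochberg method, and conditions by exact permutation tests. Conversion and non-conversion counts per region were tested with edgeR 4.0.16, and limma 3.58.1 as an alternative. EdgeR alone was also run on simulated arsenite and PBS counts of 919 regions. It recovered 55.5% of 200 regions changed 2-fold in the odds, with 10 false calls, and made 0 calls where no change was simulated. Changes of that size can therefore be missed. Genes came from the RefSeq table of GRCh38.p14 where 50% or more of a cluster lay in the span. Near copies were found with blastn 2.17.0. Named regions were the 15 that met the rule in most libraries (1 of them is not reported here), the 5 with most reads, called regions, those nearest the limit and those in the 3 gene lists. The clusters, lists and tests were chosen with earlier results of these data known. Same-numbered replicates deviated together only weakly, with correlations from -0.042 to 0.130, against -0.120 to 0.057 for different numbers. The highest was between replicate 3 of tunicamycin for 1 h and for 4 h, which came from the same library set. No pairing was used in the main tests.

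All 514 distinct clusters inside RefSeq promoter windows had the same sequence there, which fixes the coordinates. The IgG lists were used only together, because the names of the PBS and arsenite lists go against their samples.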

Additional observations from a re-analysis of the deposited data

How the results depend on the processing

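Of 756 values recomputed for 48 results, 655 kept their direction and their side of the threshold or stayed within the spread. Exact permutation tests of 3 against 3 libraries cannot go below p = 0.10, so those results could not cross the threshold. T content is tied to the rule. The T, C and G content, length and conversion in other libraries of the strongly converted clusters did so under each alternative run. The cause of the other changes was not tested. Differences below are strongly converted minus other clusters, or the first condition minus the second, in percentage points, bases or reads.

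With a read minimum of 10, ACA differed by -3.50 and IgG overlap by 2.52, both no longer past the threshold, while GGC (18.4), GGAC (4.68) and recurrence (-10.6) now passed. The share difference of tunicamycin for 1 h against DMSO was -0.0515, and the median read difference 0.667 for arsenite against PBS and 0.333 for tunicamycin for 4 h against 1 h. With a minimum of 50, where 51 clusters remained, CAT (-9.60) did not pass, GGC was -28.7 and GGAC -10.2. The share difference of tunicamycin for 4 h against 1 h was -0.281, the length difference for 4 h against DMSO 27.0, and the read differences -15.0 (1 h against DMSO) and 22.3 (4 h against 1 h).

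With a conversion limit of 15%, GGC was 7.72, GGAC 9.74 and recurrence -4.15. The share difference for 1 h against DMSO was -0.0689, the length difference for 4 h against DMSO 5.68, and the read differences 1.67 for arsenite and -0.333 for 4 h against DMSO. With a limit of 30%, where 29 clusters remained, A was -1.66, GGC 35.7, GGAC -23.1, recurrence 3.90, IgG overlap -3.78, pseudogenes -7.40, small RNA genes -1.79, protein-coding genes 14.0, near copies -31.9 and G among bases other than T -0.0994. The share difference for 1 h against DMSO was -0.0175, T content 2.26 for arsenite and 2.71 for 4 h against 1 h, length 39.8 (1 h) and 14.7 (4 h) against DMSO and -25.2 for 4 h against 1 h, and reads -6.67 for 4 h against DMSO.

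Within replicates 1 and 2 the length difference for 4 h against DMSO was 4.00. Within replicate 3, 1 h against DMSO gave -0.181 for the share, -1.20 for T and 0.0962 for length, and 4 h against 1 h gave 1.65 for T and -9.29 for length. Over all clusters the share difference for 1 h against DMSO was -0.0111. Per 100 bases, ACA was 0.723 and GGC 0.590. Chosen after seeing the data were the weighting to T classes, the gene classes, near copies and composition among bases other than T, the T-poor share and the regions of 1 library only. In these regions ACA was -7.68, GGC 14.9, GGAC -7.09, recurrence -22.5, IgG overlap -2.80, pseudogenes 0.461, small RNA genes -1.16, protein-coding genes 3.21, near copies -8.76 and G among bases other than T -0.294.

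Leaving out 1 library at a time gave 10.8 to 16.7 for IgG overlap, -5.70 to -3.10 for recurrence, -0.789 to 6.34 for GGC, -0.377 to 2.86 for GGAC and 6.76 to 11.2 for near copies. The T difference for arsenite ran from -3.05 to 0.683. Length differences ran from -17.2 to 19.0 (arsenite), -8.55 to 8.83 (1 h against DMSO), -4.75 to 5.90 (4 h against DMSO) and -9.23 to 8.15 (4 h against 1 h). The share difference for 1 h against DMSO ran from -0.137 to 0.0945 and the log2 number for 4 h against DMSO from -0.10 to 1.14. Region calls ran from 0 to 1, 0 to 0, 0 to 4 and 0 to 2 for 1 h, 4 h, 4 h against 1 h and arsenite, with 1 without DMSO replicate 3 and 4 without replicate 3 of tunicamycin for 4 h.

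With the replicate number as a block, 1 region was called for 4 h against 1 h and 1 for arsenite, and the share differences of 0.284, 0.0120, 0.144 and 0.132 had adjusted p of 0.50, 1.0, 0.50 and 0.67 (exact sign flips). Within replicates 1 and 2, 1 region was called for 4 h against 1 h. For arsenite, 1 was called with a minimum of 5 reads and 0 with limma. The planned shares of UTR, coding and intron positions were not run. Depth limits the shallow libraries most, with 2 clusters in PBS replicate 2.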
